A study of Mus musculus with 24 samples.

Results

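The B cell and plasma cell genes examined were Cd79a, Cd79b, Ms4a1, Pax5, Cr2, Cd22, Jchain, Mzb1 and Irf4, read from RNA-seq of the whole mouse aorta months after an infusion of angiotensin II (Ang II). They were taken by their gene symbol in the deposited comparison tables, and all 9 were found among the 37606 genes of the count table. The 24 libraries fell into 6 groups of 4: aortas of wild-type (WT) mice 2, 4 or 6 months after Ang II, and aortas of WT mice 2, 4 or 6 months after a sham infusion. Ang II, the peptide hormone that raises blood pressure, or vehicle was delivered under the skin from an osmotic minipump for 2 weeks, and RNA was extracted from homogenized aorta. All groups were WT and all animals carried a pump; strain, sex and age of the animals were not used here. The labels do not say whether the 4 libraries of a group came from separate animals, so the p-values measure no more than how far these libraries vary, and that variation may be technical.

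B lymphocytes recognise antigen with a membrane immunoglobulin that signals through the paired chains CD79A and CD79B, and the transcription factor PAX5 holds their identity. A B cell that is driven to secrete antibody becomes a plasma cell: it shuts PAX5 off, switches on IRF4, makes the joining chain (Jchain) that links IgA and IgM monomers, and expands its secretory pathway with the help of chaperones such as MZB1. In arteries B cells lie mainly in the adventitia and in the surrounding fat, in places as lymphoid clusters or lymph nodes. IRF4 is not particular to the B lineage: activated T cells, macrophages, dendritic cells and adipocytes also make it, and it is quickly induced after antigen receptor signals.

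The 24 libraries held between 19.2e6 and 58.7e6 counts. The 6 month libraries were deeper, at 37.6e6 counts or more, but 31.8 to 59.3% of their counts lay on chromosome M, against 7.72 to 16.3% at 2 and 4 months. The tissue carried both arterial wall and fat: Acta2, the actin of smooth muscle, ran from 112.8 to 3270 counts-per-million (CPM) over the libraries, and the adipocyte hormone Adipoq from 479 to 1758 CPM. Other transcripts were present too. The sum of 10 airway epithelium genes ran from 37.4 to 8779 CPM, both in sham aortas at 2 months (replicates 2 and 3). Rag1, of a thymocyte list, had 19.4 CPM in Ang II aortas at 6 months, replicate 3, and 4.47 CPM in replicate 4. Their source was not tested. CPM here are scaled by the trimmed mean of M-values (TMM) over all 24 libraries. The B cell markers were present in every library, the lowest value of any of the 9 genes being 8 counts, of Cr2 in sham aortas at 2 months, replicate 4.

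The genes are spread over the genome (build mm10). Cd79a lies at chr7:24897381-24902197 and Cd22 at chr7:30865402-30880342, while Cd79b lies at chr11:106311341-106314762. Ms4a1 lies at chr19:11249675-11266241, Pax5 at chr4:44524757-44710487 and Cr2 at chr1:195136811-195176716. Jchain lies at chr5:88519809-88527891 and Irf4 at chr13:30749226-30766976. Cd79a and Cd22 varied together over the aortas and Irf4 followed them less closely, so the start regions of these 3 genes are shown, each from 250 bases before to 50 bases after the RefSeq start (GRCm38.p6). Capitals mark GGG followed by any 5 bases and CC, a loose form of the NF-kB site, in Cd79a and Irf4, and CCCNNGGG, the palindromic core bound by the B cell factor EBF1, in Cd22. The windows are chr7:24897247-24897546 on the plus strand for Cd79a, chr7:30878979-30879278 on the minus strand for Cd22 and chr13:30748983-30749282 on the plus strand for Irf4. The RefSeq start of Cd22 lies inside the span that the deposited tables give to the gene.
Cd79a: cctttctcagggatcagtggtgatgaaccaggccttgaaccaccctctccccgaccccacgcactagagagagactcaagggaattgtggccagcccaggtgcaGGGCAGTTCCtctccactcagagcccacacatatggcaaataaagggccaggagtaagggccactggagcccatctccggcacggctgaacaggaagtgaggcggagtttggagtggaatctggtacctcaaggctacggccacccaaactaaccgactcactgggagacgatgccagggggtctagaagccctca
Cd22: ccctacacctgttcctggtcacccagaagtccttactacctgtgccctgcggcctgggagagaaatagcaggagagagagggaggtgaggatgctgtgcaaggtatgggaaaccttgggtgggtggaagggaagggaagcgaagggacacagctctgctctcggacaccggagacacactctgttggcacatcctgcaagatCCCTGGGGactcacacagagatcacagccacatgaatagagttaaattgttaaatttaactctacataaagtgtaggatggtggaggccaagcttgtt
Irf4: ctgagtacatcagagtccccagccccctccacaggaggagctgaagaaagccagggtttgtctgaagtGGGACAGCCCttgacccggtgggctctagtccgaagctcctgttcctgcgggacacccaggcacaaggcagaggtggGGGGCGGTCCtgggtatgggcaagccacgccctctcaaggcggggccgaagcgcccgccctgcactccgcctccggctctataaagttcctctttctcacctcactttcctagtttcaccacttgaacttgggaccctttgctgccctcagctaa

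Such a window was at hand for 6 of the 9 genes (Cd79a, Cd22, Cr2, Irf4, Jchain and Pax5), and motifs were searched on both strands. The NF-kB-type string was present in 4 of the 6, namely Cd79a, Cr2, Irf4 and Pax5, and Irf4 held it at 2 positions. It is a frequent string, present in 50.8% of all 32851 promoter windows. CCCNNGGG was present in 1 of the 6, against 13.7% of all windows. The octamer ATGCAAAT, known from immunoglobulin promoters, was in 0 of the 6 (1.74% of all windows), as were the PU.1 string GAGGAAGT (3.2%), the AP-1 string TGANTCA (7.81%) and the CRE string TGACGTCA (1.79%). A match describes letters only, and the absence of one says only that these letters are not in the window.

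Per kilobase of exon, Jchain and the 2 antigen receptor chains stood above the rest. The median over all 24 libraries was 19.5 CPM per kb for Jchain, 12.4 for Cd79a and 10.6 for Cd79b. It was 4.75 CPM per kb for Irf4, 4.51 for Mzb1 and 2.17 for Cd22, a surface lectin that damps the antigen receptor. Ms4a1, the gene of the surface protein CD20, had a median of 1.73 CPM per kb, Pax5 1.33 and Cr2, the complement receptor CD21 of mature B cells, 1.03.

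Levels differed widely between libraries. The highest library exceeded the lowest by 56.3-fold for Cd79a, 45.9-fold for Cd79b, 68.6-fold for Ms4a1 and 125.1-fold for Cr2 on the CPM scale. The span was 16.1-fold for Jchain and 9.79-fold for Irf4, the narrowest of the 9. Ordered by group mean, Ang II aortas at 4 months came first for 7 genes and Ang II aortas at 2 months for Jchain and Irf4. Sham aortas at 2 months came last for 7 genes; for Cd79a and Cd79b the lowest mean was that of Ang II aortas at 6 months. Groups next to each other in that order overlapped in all 5 pairs for 8 genes. For Irf4 they overlapped in 4 of 5, the exception being sham aortas at 4 months, with a mean of 23.8 CPM, against sham aortas at 2 months, with 12.2 CPM. Between those groups 9.05% of all genes did not overlap, and 3.22% with the 4 month aortas higher.

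**Figure D1:**
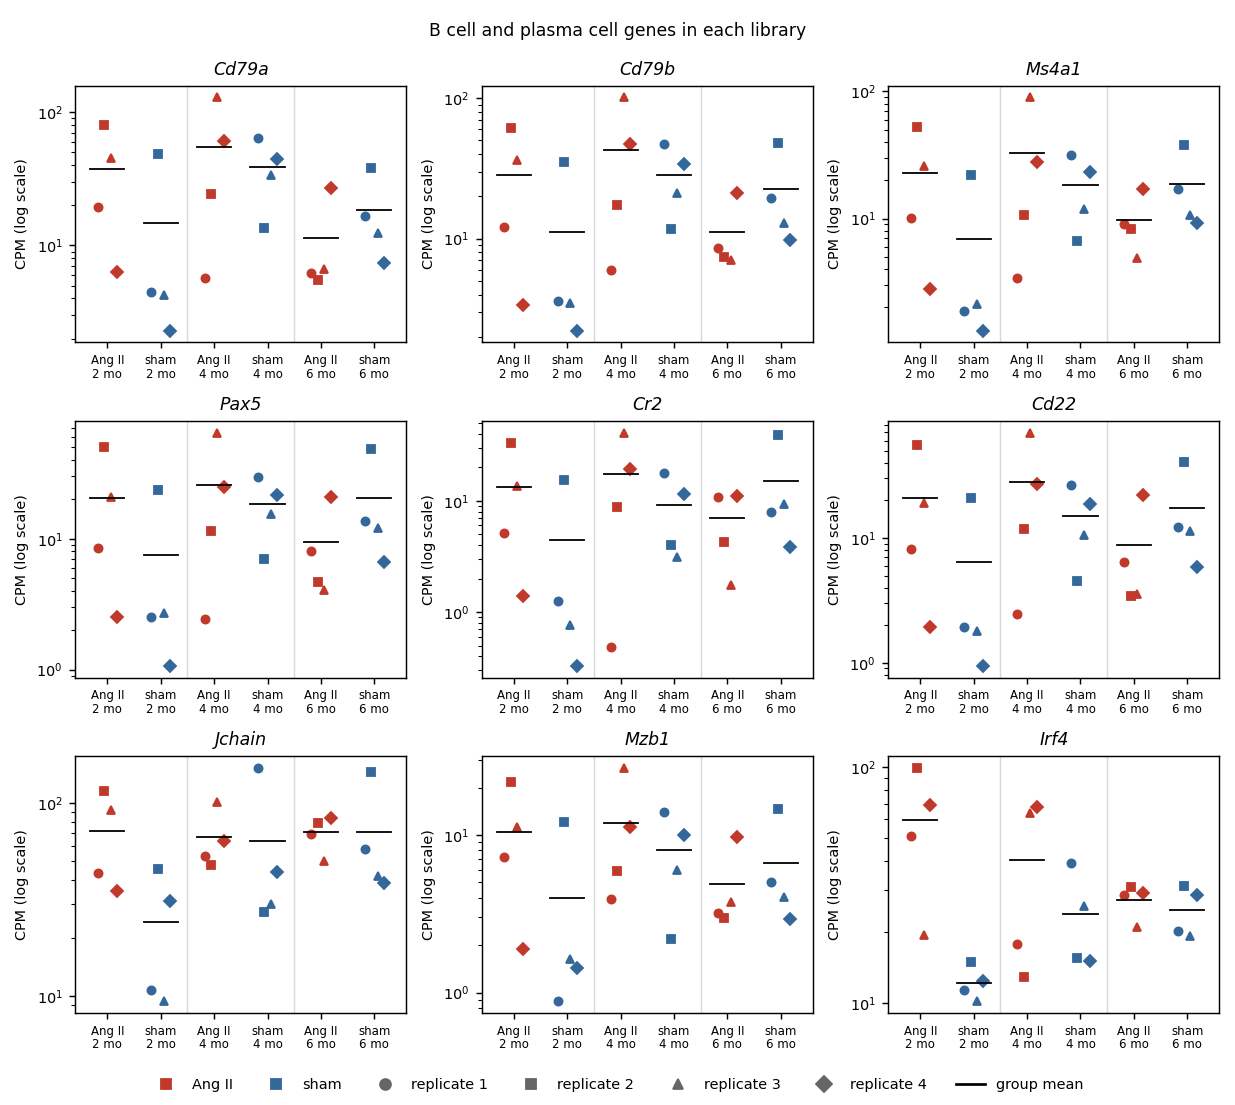
Level of each of the 9 genes in every library, in CPM on a log axis, with Ang II aortas left of sham aortas at 2, 4 and 6 months. Each point is 1 library, its shape the replicate number, and the black line is the mean of the group of 4. Irf4 at 2 months is the panel and time where every Ang II point lies above every sham point; the other genes overlap at each time.

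At 2 months Irf4 rose 5.04-fold in Ang II aortas, and all 9 genes had a positive fold change. The B cell genes proper averaged 2.58-fold to 3.40-fold higher, but with so wide a spread between aortas of 1 group that none of them passed the test. Irf4 was the 1 gene of 9 called by edgeR's quasi-likelihood test at an adjusted p under 0.05, where 1.81% of all 16421 genes tested were called and 0.371% were called higher. Its groups did not overlap either, which held for 2.8% of all genes in that direction and 7.83% in either. The median log2 fold change of the 9 genes was 1.59, against 0.0090 over all genes tested, and 51.7% of all genes lay above 0.

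Cd79a, of the signalling pair of the antigen receptor, had 19.5, 79.5, 45.4 and 6.31 CPM in Ang II aortas at 2 months, against 4.44, 48.2, 4.25 and 2.30 CPM in sham aortas. Only replicate 2 of the Ang II aortas exceeded the highest sham library, which was also replicate 2, and the groups overlapped. The log2 fold change was 1.37 (SE 1.07, 95% interval -1.06 to 3.81, adjusted p = 0.776 by edgeR). Its partner Cd79b showed the same picture, with 12.1, 61.3, 36.3 and 3.38 CPM in Ang II aortas and 3.59, 35.3, 3.49 and 2.21 CPM in sham aortas. Here 2 of the 4 Ang II aortas lay above every sham aorta, at a log2 fold change of 1.37 (SE 1.08, adjusted p = 0.777). In whole tissue, a difference in the number of B cells and a difference in the RNA of these genes per B cell cannot be told apart.

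Pax5, the identity factor, had 8.45, 50.3, 20.9 and 2.51 CPM in Ang II aortas and 2.502, 23.8, 2.69 and 1.07 CPM in sham aortas. The groups overlapped, again through the high sham replicate 2. Ms4a1 had 10.1, 52.3, 26.1 and 2.79 CPM in Ang II aortas, against 1.87, 22.0, 2.14 and 1.31 CPM in sham aortas, the second highest fold change of the 9 genes at 3.40-fold (log2 1.77, SE 1.11, adjusted p = 0.684). Cr2 had 5.17, 32.8, 13.5 and 1.39 CPM in Ang II aortas and 1.27, 15.3, 0.76 and 0.328 CPM in sham aortas. Cd22 had 8.21, 55.2, 19.0 and 1.92 CPM in Ang II aortas, against 1.94, 21.04, 1.80 and 0.943 CPM in sham aortas. In each of these genes Ang II replicates 2 and 3 were high and Ang II replicate 4 was the lowest of its group. Over Cd79a, Cd79b, Ms4a1, Pax5, Cr2 and Cd22 the biological coefficient of variation was 0.964 to 1.12, against a median of 0.227 over all genes tested, and adjusted p lay between 0.684 and 0.777.

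That spread lay in both groups, Cd79a having an SD of 32.3 CPM in Ang II aortas and 22.3 CPM in sham aortas at 2 months. The size of the fold change depended on single aortas of either group. Without sham replicate 2, the log2 fold changes of these 6 genes were 3.24 to 4.12 (adjusted p 0.130 to 0.194), and without Ang II replicate 2 they were 0.48 to 0.91 (adjusted p 0.894 to 0.945).

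Of the plasma cell genes, Jchain had 43.3, 115.1, 92.2 and 35.1 CPM in Ang II aortas at 2 months, against 10.8, 45.4, 9.43 and 31.2 CPM in sham aortas. Ang II replicates 2 and 3 lay above every sham library, and the groups overlapped. Jchain was 3.01-fold higher (log2 1.59, SE 0.59, 95% interval 0.24 to 2.94), with an unadjusted p of 0.0257 and an adjusted p of 0.3503 by edgeR. It passed under 1 of 17 alternative settings, limma voom with quality weights, at an adjusted p of 0.0451. Mzb1, a chaperone of the endoplasmic reticulum that helps immunoglobulin assembly, had 7.23, 21.7, 11.2 and 1.88 CPM in Ang II aortas and 0.881, 12.1, 1.62 and 1.44 CPM in sham aortas (log2 1.42, SE 0.96, adjusted p = 0.722). In the GENCODE M21 annotation 57.2% of the Mzb1 exon bases also belong to a gene on the same strand. That gene is not among the counted genes, so whether the overlap affected Mzb1 counts is not known.

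Irf4 had 51.2, 99.4, 19.4 and 69.4 CPM in Ang II aortas at 2 months, against 11.4, 14.8, 10.2 and 12.4 CPM in sham aortas. The 4 sham aortas were close together, the 4 Ang II aortas were not, and all 4 lay above the highest sham aorta. The log2 fold change was 2.33 (SE 0.44, 95% interval 1.34 to 3.33, adjusted p = 0.0346 by edgeR), and in the authors' deposited table it was 2.32 with an adjusted p of 1.42e-06. The aorta with the lowest B cell transcripts of its group, Ang II replicate 4, had the second highest Irf4, at 69.4 CPM with 6.31 CPM of Cd79a. Sham replicate 2, with 48.2 CPM of Cd79a, had 14.8 CPM of Irf4, the highest of the sham aortas and below every Ang II aorta. The call was near the threshold: it was lost when any of 7 of the 8 libraries was left out (adjusted p 0.0624 to 0.141) and kept without Ang II replicate 3, and limma voom gave a log2 fold change of 1.55 with an adjusted p of 0.171.

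Other marker lists moved in the same aortas, where edgeR called 0.371% of all genes higher and 1.44% lower at 2 months. Of the immediate early genes, which cells switch on shortly after a stimulus, 5 of 17 tested rose at 2 months and none fell. Their summed level was 732.7 to 1776 CPM in Ang II aortas and 374.4 to 504.4 CPM in sham aortas, without overlap, and the nuclear receptor Nr4a1 among them rose by 3.09 on the log2 scale (SE 0.37, adjusted p = 0.00820). Of the macrophage and monocyte markers 4 of 15 rose and none fell, with overlapping sums of 632.1 to 988.8 CPM in Ang II aortas and 380.6 to 654 CPM in sham aortas. Of the aortic wall genes 5 of 8 fell, at summed levels of 973.1 to 1867 CPM in Ang II aortas and 3286 to 6620 CPM in sham aortas. That sham group lay above all other groups in this sum. The wall sum was 772.2 to 2637 CPM in sham aortas at 4 months and 1424 to 1870 CPM at 6 months. In sham aortas at 4 over 2 months edgeR called 6 of 8 wall genes lower, against 1.77% of all genes. The T and NK cell sums overlapped, at 22.8 to 191.7 CPM in Ang II aortas and 11.5 to 205.7 CPM in sham aortas, with 0 of 18 markers called by edgeR, DESeq2 or limma voom and 0 at an unadjusted p under 0.05. The general adipocyte sum, of a cell that can make Irf4, overlapped as well, at 26050 to 40920 CPM in Ang II aortas and 24270 to 33750 CPM in sham aortas. Of the brown adipocyte list, 1 of 8 genes, Prdm16, fell (log2 -0.93, SE 0.12, adjusted p = 0.0106 by edgeR), with overlapping sums of 1044 to 2246 CPM in Ang II aortas and 1612 to 2941 CPM in sham aortas. The erythroid sum was 69.3 to 174.3 CPM in Ang II aortas and 197.2 to 478.5 CPM in sham aortas, without overlap. By edgeR 0 of 6 were called and 5 had an unadjusted p under 0.05, and DESeq2 called 5 and limma voom 0. Over all genes at 2 months 1770 of 16421 had such a p, DESeq2 called 727 and limma voom 629. In sham aortas 1 of the 19 listed immediate early genes was at 0 in all 4 libraries, and no marker of the other 6 lists was at 0 in either group at 2 months. The part of these lists in the Irf4 result was not tested.

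**Figure D2:**
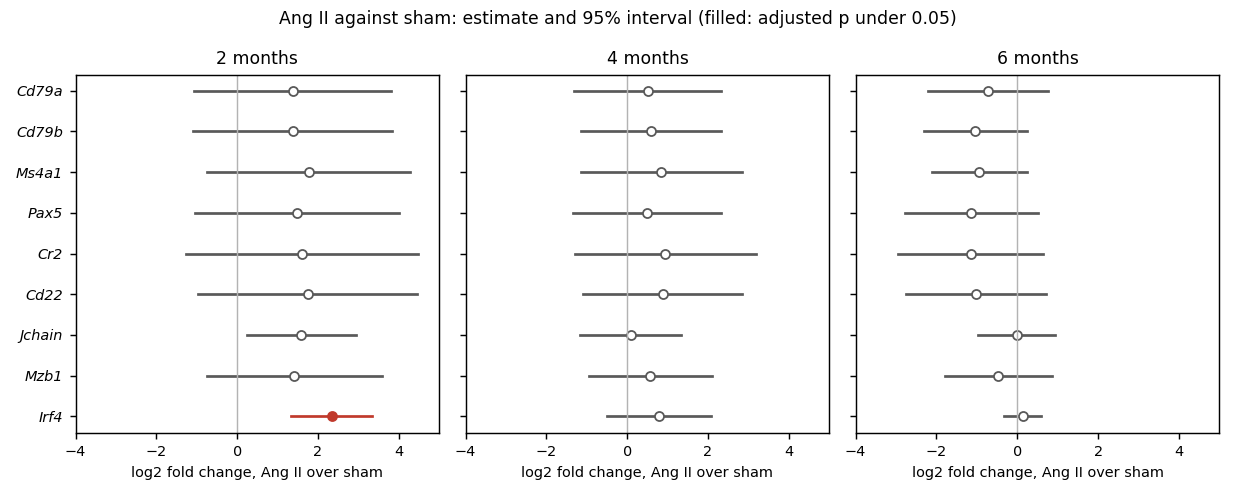
Log2 fold change of Ang II over sham for each of the 9 genes, with its 95% interval, at 2, 4 and 6 months. The filled red point, Irf4 at 2 months, is the estimate with an adjusted p under 0.05; all 9 estimates lie above 0 at 2 and 4 months, and 1 of 9 at 6 months.

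At 4 months the 9 genes again had positive fold changes, between 0.086 for Jchain and 0.94 for Cr2 on the log2 scale, and none passed. By edgeR 0 of 9 were called and 0 of 9 had an unadjusted p under 0.05, and DESeq2 and limma voom also called 0. Of all 16127 genes tested, 0.707% were called and 0.143% were called higher. In 0 of 9 did the groups part without overlap, against 10.2% of all genes, and 3.96% with Ang II aortas higher. The median log2 fold change of the 9 was 0.59, against 0.044 over all genes, of which 57% lay above 0.

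Cd79a had 5.74, 24.4, 129.2 and 60.5 CPM in Ang II aortas at 4 months, against 63.8, 13.5, 33.5 and 44.3 CPM in sham aortas. Ang II replicate 3 was the highest of the 24 libraries and Ang II replicate 1 the lowest at this time, so that the Ang II aortas enclosed the sham aortas on both sides. The log2 fold change was 0.50 (SE 0.79, adjusted p = 0.770 by edgeR). Without Ang II replicate 3 the log2 fold changes of the 6 B cell genes were -0.48 to 0.11, and without sham replicate 1 they were 0.81 to 1.47. Pax5 followed Cd79a, with 2.45, 11.4, 65.0 and 24.9 CPM in Ang II aortas and 29.8, 7.02, 15.4 and 21.5 CPM in sham aortas. For Cd79a, Cd79b, Ms4a1, Pax5 and Cd22 the direction at 4 months therefore depended on 1 aorta, while Cr2 stayed above 0 without it.

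Jchain had 53.1, 48.1, 101.1 and 63.6 CPM in Ang II aortas at 4 months, against 152, 27.1, 30.1 and 44.0 CPM in sham aortas. The highest library was sham replicate 1, and the 4 Ang II aortas lay above the other 3 sham aortas. With that library the log2 fold change was 0.086 (SE 0.55, adjusted p = 0.946), and without it 0.98 (adjusted p = 0.219). Irf4 had 17.7, 12.9, 63.7 and 67.6 CPM in Ang II aortas, against 39.2, 15.5, 25.7 and 15.1 CPM in sham aortas. Ang II replicates 3 and 4 were above every sham aorta and replicates 1 and 2 among them, at 1.71-fold (log2 0.77, SE 0.56, 95% interval -0.51 to 2.06, adjusted p = 0.531).

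The 2 Ang II aortas with high Irf4 at 4 months also had high immediate early transcripts. The sum of that list was 324.3, 481.6, 1003 and 912.5 CPM in Ang II aortas and 552.8, 648.4, 461.9 and 424.2 CPM in sham aortas. Of the list, 0 of 17 were called, with 1 at an unadjusted p under 0.05. The match did not hold throughout. Sham replicate 2, with the highest sham sum, had 15.5 CPM of Irf4. At 2 months the sum was highest in Ang II replicate 1 (1776 CPM) and Irf4 in Ang II replicate 2 (99.4 CPM). Among Ang II aortas at 6 months, replicate 3 had the highest sum, 1140 CPM, and the lowest Irf4, 20.9 CPM. The T and NK cell sum was 37.6, 88.6, 307.2 and 206.0 CPM in Ang II aortas and 157.3, 50.3, 179.8 and 154.8 CPM in sham aortas, also highest in Ang II replicate 3, with 0 of 17 called and 0 at an unadjusted p under 0.05. Neither list's part in the levels of the 9 genes was tested.

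At 6 months the sign was the opposite for most of the genes, and again nothing passed. The fold change was below 0 in 8 of 9 genes, from -1.16 for Cr2 to -0.015 for Jchain on the log2 scale, with Irf4 at 0.13. By edgeR, DESeq2 and limma voom 0 of 9 were called, and 0 of 9 had an unadjusted p under 0.05. Over all 19343 genes tested edgeR called 0, or 0%, with 976 at an unadjusted p under 0.05, and DESeq2 called 63. The groups overlapped in 9 of 9 genes, while they did not in 3.12% of all genes, and with Ang II aortas higher in 1.4%. The median of the 9 was -0.95, against -0.025 over all genes.

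Cd79b had 8.58, 7.45, 7.07 and 21.2 CPM in Ang II aortas at 6 months, against 19.4, 47.9, 12.95 and 9.70 CPM in sham aortas. Of the Ang II aortas 3 of 4 lay below every sham aorta and replicate 4 lay among them. The log2 fold change was -1.04 (SE 0.56, 95% interval -2.32 to 0.23, unadjusted p = 0.0979, adjusted p = 0.9997 by edgeR). Ms4a1 had 8.999, 8.32, 4.89 and 17.0 CPM in Ang II aortas and 17.0, 37.8, 10.7 and 9.19 CPM in sham aortas, also with 3 of 4 Ang II aortas below every sham aorta. Without sham replicate 2, the highest in each of these genes, the log2 fold changes of the 6 B cell genes were -0.33 to -0.029. Without Ang II replicate 4 they were -1.99 to -1.34 (adjusted p 0.912 to 0.923 by edgeR).

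Jchain and Irf4 had estimates near 0 at 6 months. Jchain had 69.2, 78.7, 49.9 and 83.8 CPM in Ang II aortas, against 57.8, 143.9, 41.9 and 38.4 CPM in sham aortas (log2 -0.015, 95% interval -0.96 to 0.93). Irf4 had 28.6, 30.9, 20.9 and 29.2 CPM in Ang II aortas and 20.2, 31.4, 19.2 and 28.6 CPM in sham aortas (log2 0.13, SE 0.20, 95% interval -0.32 to 0.59, adjusted p = 0.9997 by edgeR). All 8 aortas lay within a 1.63-fold span of Irf4, and the groups overlapped. The interval at 6 months does not reach the 2.33 estimated at 2 months.

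Averaged over the 3 times, Irf4 was 2.07-fold higher in Ang II aortas (log2 1.05, SE 0.33, 95% interval 0.36 to 1.74, unadjusted p = 0.00441), with an adjusted p of 0.406 by edgeR. It was the 1 member with an unadjusted p under 0.05, and 0 of 9 were called by edgeR, DESeq2 or limma voom, where edgeR called 0.0052% of all genes (1 of 19218). The 6 B cell genes averaged 0.29 to 0.57 on the log2 scale (adjusted p 0.933 to 0.984), with the positive values at 2 and 4 months set against the negative ones at 6. Restricted to 2 and 4 months, a choice made after the values were seen, they averaged 0.93 to 1.30 (adjusted p 0.448 to 0.580) and Irf4 1.54 (adjusted p = 0.0987).

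Whether the Ang II effect differed between the times was tested directly. The interaction of treatment and time gave Irf4 an unadjusted p of 0.0112 and an adjusted p of 0.250 by edgeR, and the 9 genes adjusted p-values of 0.250 to 0.698. None of the 9 passed by edgeR, DESeq2 or limma voom, against 0.536% of all genes by edgeR. The effect at 4 months minus that at 2 months was below 0 in 9 of 9 genes, between -1.56 for Irf4 (SE 0.76, 95% interval -3.19 to 0.060, unadjusted p = 0.0579) and -0.67 for Cr2. Of the 9, 0 were called by edgeR, DESeq2 or limma voom and 0 had an unadjusted p under 0.05, and edgeR called 0% of all 17153 genes, with 1813 at an unadjusted p under 0.05. The difference between the Irf4 effect at 2 months and at the later times was thus not past the adjusted threshold.

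The sham aortas that the effects are set against differed between the times as well. In sham aortas all 9 genes were higher at 4 than at 2 months, by 0.97 (Irf4) to 1.41 (Ms4a1) on the log2 scale. None passed by edgeR, DESeq2 or limma voom, against 2.02% of all genes by edgeR, and Jchain was the 1 gene with an unadjusted p under 0.05 (log2 1.38, SE 0.62, unadjusted p = 0.0414, adjusted p = 0.273). Irf4 averaged 23.8 ± 11.3 CPM in sham aortas at 4 months and 12.2 ± 1.99 CPM in sham aortas at 2 months (SD, n = 4 each). The ranges were apart by little, the lowest being 15.1 CPM at 4 months and the highest 14.8 CPM at 2 months. In Ang II aortas, 4 over 2 months gave between -0.59 for Irf4 (SE 0.53, adjusted p = 0.727) and 0.56 for Cd79b. None passed by any of the 3 tools, against 0.00583% of all genes by edgeR, and 0 of 9 had an unadjusted p under 0.05. The 4 and 2 month libraries were compared within 1 fit, and no label says whether they were prepared together.

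Across the aortas, 6 of the genes behaved almost as 1 signal. With the mean of each time removed, the log2 CPM of Cd79a, Cd79b, Ms4a1, Pax5, Cr2 and Cd22 correlated pairwise at Pearson r of 0.938 to 0.992 over the 24 libraries, Pax5 with Cd22 the closest. Mzb1 followed them at 0.865 to 0.950 and Jchain at 0.681 to 0.759. Irf4 correlated with them at 0.486 to 0.556, and at 0.391 to 0.435 with the mean of each group of 4 removed as well. Jchain and Mzb1, both of the secretory program, correlated with each other at 0.823. All these values share the libraries and their depth, and they are given as a description.

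**Figure D3:**
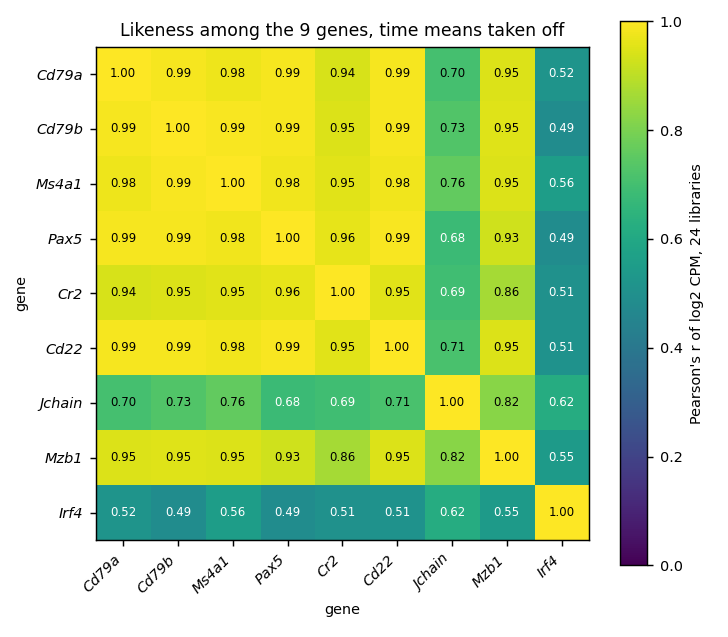
Heat map of Pearson r between the log2 CPM of each pair of the 9 genes over the 24 libraries, with the mean of each time removed. The 6 genes from Cd79a to Cd22 form a block between 0.938 and 0.992, and the lowest values are in the Irf4 column, 0.486 to 0.556 with that block.

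The ratio of a gene to Cd79a in the same aorta needs no scaling between libraries. For a gene that does not follow Cd79a, it also carries the wide span of Cd79a itself. The ratios are therefore given as a description and not as separate support for the split. Over the 16 libraries at 2 and 4 months Cd79b was 0.536 to 1.05 times Cd79a, Pax5 0.398 to 0.634 times and Ms4a1 0.355 to 0.697 times. Cd22 was 0.304 to 0.694 times Cd79a. Cr2, of the same 6 genes, ran from 0.0839 to 0.412 times, a 4.91-fold span. That was wider than the 4.185-fold span of Mzb1, at 0.162 to 0.678 times. Jchain ran from 0.783 to 13.6 times Cd79a and Irf4 from 0.308 to 11 times, a 35.8-fold span. At 6 months the proportions within the B cell block were others: the median ratio to Cd79a was 0.511 at 2, 0.497 at 4 and 1.01 at 6 months for Ms4a1. For Cr2 it was 0.275, 0.288 and 0.643 at those times, with the highest ratio, 1.74, in Ang II aortas at 6 months, replicate 1. The 6 month libraries are also those with the high share of counts on chromosome M, and the part of that in these ratios was not tested.

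**Figure D4:**
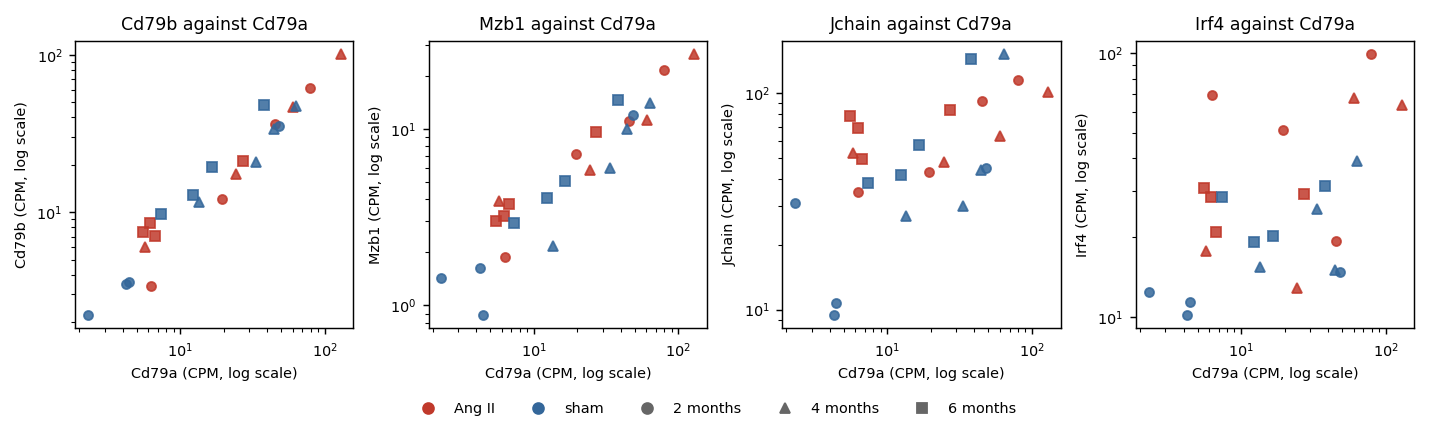
Level of Cd79b, Mzb1, Jchain and Irf4 against that of Cd79a in each of the 24 libraries, both in CPM on log axes, with colour for treatment and shape for time. Cd79b lies along a narrow line, Jchain scatters around one, and the 4 Ang II aortas at 2 months have Irf4 of 19.4 to 99.4 CPM while their Cd79a runs from 6.31 to 79.5 CPM.

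Genes whose pattern was most like each were ranked by the same r among 15153 genes. Among the nearest to Cd79a were Fcrla (0.990), Cd79b (0.987), Cd22 (0.986) and Fcmr (0.986), all B cell genes. Nearest to Jchain were the immunoglobulin constant regions Igkc (0.955), Ighm (0.939), Iglc3 (0.887) and Iglc1 (0.861), followed by Ero1lb (0.844), an oxidase of the endoplasmic reticulum. Nearest to Irf4 were Hic2 (0.867), a transcriptional repressor, and Slc25a25 (0.851), a mitochondrial carrier. They were followed by Errfi1 (0.838), a feedback inhibitor of the EGF receptor, Apold1 (0.803), an early response gene of endothelium, and Etv3 (0.793). None of these 5 is among the 5 nearest to Cd79a or Jchain.

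Wider lists of the B lineage had mostly the same signs as the 9 genes, and edgeR called none of their genes at the 3 times. Unadjusted edgeR p was under 0.05 in 1770 of 16421, 2502 of 16127 and 976 of 19343 genes at 2, 4 and 6 months. Over all genes, DESeq2 called 727, 993 and 63 at those times and limma voom 629, 602 and 0. Of 24 further B cell genes 23 lay above 0 at 2 months, 24 at 4 months and 0 at 6 months, with median log2 fold changes of 1.27, 0.62 and -0.62. At an unadjusted p under 0.05 there were 0 at each time, and DESeq2 and limma voom called 0. Bank1, an adaptor of the B cell receptor, was at 1.39 (adjusted p = 0.642 by edgeR) and Bach2, a repressor that keeps B cells from becoming plasma cells, at 1.24 (adjusted p = 0.616), both at 2 months. Of 16 genes of B cell receptor signalling 15, 14 and 0 lay above 0 at 2, 4 and 6 months. The kinase Syk was at 1.14 at 2 months (adjusted p = 0.457), and unadjusted p was under 0.05 for 2, 0 and 1 of the 16. DESeq2 called 1 of them at 2 months and limma voom 0.

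The antibody genes were mostly above 0 at 2 and 4 months, without a call by edgeR. Of 11 immunoglobulin constant regions tested (12 listed) 11, 10 and 2 lay above 0 at 2, 4 and 6 months, with medians of 1.49, 0.58 and -0.30. At 2 months 3 had an unadjusted p under 0.05, DESeq2 called 1 and limma voom 2, against 1770, 727 and 629 of all genes. At 4 and 6 months 0 and 1 had such a p, and both tools called 0. Igha, the heavy chain of IgA, had 36.8, 17.7, 33.7 and 40.9 CPM in Ang II aortas at 2 months, against 5.07, 10.5, 5.70 and 15.5 CPM in sham aortas. The groups did not overlap, which held for 2.8% of all genes with Ang II aortas higher. The difference was 3.55-fold (log2 1.83, SE 0.39, adjusted p = 0.0625 by edgeR). Unlike the B cell block, Igha was highest in Ang II replicate 4, the aorta with the least Cd79a of its group.

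The plasma cell genes outside the antibody genes had smaller fold changes. Of 14 further plasma cell genes 11, 12 and 3 lay above 0 at 2, 4 and 6 months, with medians of 0.16, 0.25 and -0.17. At an unadjusted p under 0.05 there were 0, 3 and 0, and DESeq2 and limma voom each called 2 at 4 months. Over all genes at 4 months 2502 of 16127 had such a p, DESeq2 called 993 and limma voom 602. Prdm1, the factor that drives plasma cell differentiation, was at -0.64 at 2 months (SE 0.30, adjusted p = 0.521 by edgeR), with 3.17, 1.85, 2.06 and 1.26 CPM in Ang II aortas and 3.14, 2.88, 4.21 and 2.99 CPM in sham aortas. Sdc1, the plasma cell surface marker CD138 that epithelium also carries, had 27.2, 26.9, 15.4 and 16.03 CPM in Ang II aortas and 18.4, 23.0, 43.4 and 41.5 CPM in sham aortas. The groups overlapped for both. Creld2, a chaperone of the endoplasmic reticulum, was at 0.55 at 4 months (SE 0.11, adjusted p = 0.0714).

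Genes that feed, attract and mature B cells were not called either. Of the B cell survival and homing list, 13 of 15 tested at 2 months, 14 of 15 at 4 and 4 of 14 at 6 lay above 0 (20 listed). Unadjusted p was under 0.05 for 0, 1 and 0 of them. At 4 months DESeq2 called 1 and limma voom 0, where they called 993 and 602 of all genes. Tnfsf13b, the survival factor BAFF, was at 0.38 at 2 months (adjusted p = 0.608 by edgeR), and Tnfrsf13c, its receptor on B cells, at 1.97 (SE 1.15, adjusted p = 0.650). The receptor had 3.79, 23.2, 8.75 and 1.19 CPM in Ang II aortas and 0.811, 7.74, 0.276 and 0.820 CPM in sham aortas at 2 months, highest in replicate 2 of each group, as the B cell block was. Cxcl13, the chemokine that draws B cells into follicles, had 14.3, 29.6, 24.1 and 3.97 CPM in Ang II aortas and 2.19, 13.5, 2.56 and 24.9 CPM in sham aortas, and the groups overlapped.

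Of 10 germinal centre genes 7 of 9 tested at 2 months, 8 of 10 at 4 and 4 of 8 at 6 lay above 0, and unadjusted p was under 0.05 for 0, 0 and 1, with none called by edgeR, DESeq2 or limma voom. Of 15 partners and regulators of IRF4, 13, 13 and 2 lay above 0 at 2, 4 and 6 months, with unadjusted p under 0.05 for 0, 2 and 2 and none called by edgeR, DESeq2 or limma voom. Spi1, the factor PU.1 that binds DNA together with IRF4, was at 0.80 at 2 months (adjusted p = 0.475 by edgeR) and at 0.64 at 4 months (adjusted p = 0.268).

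In 5 of the 6 groups the aorta with the most Cd79a also had the highest T and NK cell sum. The T and NK cell sum was 191.7 CPM in Ang II replicate 2 and 205.7 CPM in sham replicate 2 at 2 months, the highest of each group, as for Cd79a. At 4 months it was highest in replicate 3 of the Ang II aortas (307.2 CPM), as was Cd79a, and in replicate 3 of the sham aortas (179.8 CPM), where Cd79a was highest in replicate 1. At 6 months it was highest in Ang II replicate 4 (58.2 CPM) and sham replicate 2 (202.3 CPM), again as for Cd79a. Glycam1, a ligand of lymphocyte homing made by the high endothelial venules of lymph nodes, had 1.61, 8.75, 2.83 and 0.174 CPM in Ang II aortas at 2 months and 0, 7.20, 0.0691 and 0 CPM in sham aortas. It reached 13.6 CPM in Ang II aortas at 4 months, replicate 3, and 5.07 CPM in sham aortas at 6 months, replicate 2, the highest Cd79a libraries of those times. The match did not hold in every group. Among sham aortas at 4 months Glycam1 was highest in replicate 4 (3.95 CPM) and Cd79a in replicate 1. Among Ang II aortas at 6 months Glycam1 had 0.231 CPM in replicate 4, the highest in Cd79a, and 0.867 CPM in replicate 1.

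The summed lymph node list was less uneven between aortas, but Glycam1 was a small part of it. In Ang II aortas at 4 months, replicate 3, where Glycam1 was highest, it gave 13.6 of 370.3 CPM. The sum therefore cannot tell whether lymph node content was even. Over 8 genes it was 190.8 to 277.3 CPM in Ang II aortas and 241.4 to 383.9 CPM in sham aortas at 2 months. At 4 months it was 202.1 to 370.3 CPM in Ang II aortas and 174.5 to 304.9 CPM in sham aortas, and at 6 months 114.7 to 151.8 CPM and 145.9 to 260.4 CPM in Ang II and sham aortas. Ccl19, a chemokine of the T cell zone, was at 0 in 23 of 24 libraries, also in the 1 where Glycam1 was highest. Madcam1, of the same list, had 1.67 CPM in that library. It had 1.60 CPM in Ang II and 0.857 CPM in sham replicate 2 at 2 months, and 1.49 CPM in sham replicate 2 at 6 months. In Ang II replicate 4 at 6 months, the highest in Cd79a of its group, it was at 0. Among sham aortas at 4 months it was highest in replicate 4 (0.365 CPM). The part of the lymph node list in the levels of the B cell genes was not tested. Glycam1, Ccl19, Madcam1, Cxcl13, Sdc1, Rag1 and the receptor gene Tnfrsf13c per library were picked for mention after their values were seen.

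**Figure D5:**
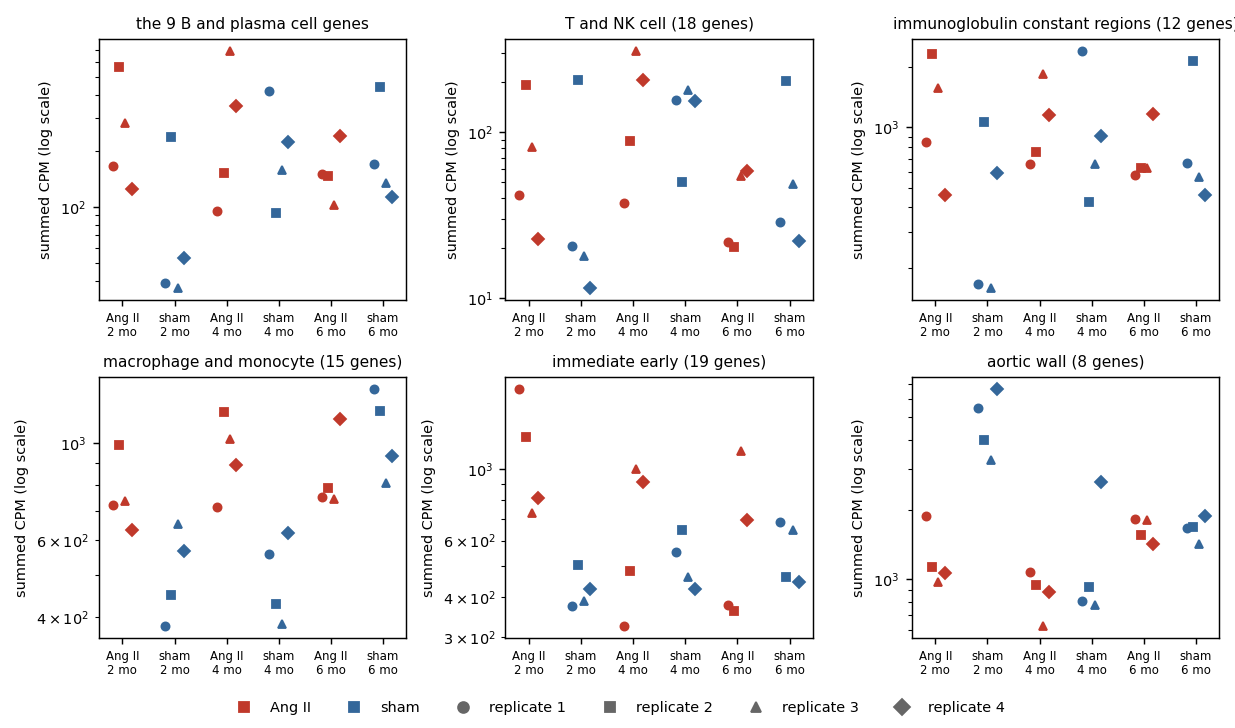
Summed CPM per library, on log axes, of the 9 genes, 18 T and NK cell markers, 12 immunoglobulin constant regions, 15 macrophage and monocyte markers, 19 immediate early genes and 8 aortic wall genes, with Ang II aortas left of sham aortas at each time. At 2 months the immediate early sum of Ang II aortas (732.7 to 1776 CPM) lies above that of sham aortas (374.4 to 504.4 CPM), the aortic wall sum lies below, and the sum of the 9 genes overlaps, at 124.7 to 567.6 CPM in Ang II aortas and 36.3 to 237.9 CPM in sham aortas.

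Other members also share exon bases with neighbours in GENCODE M21. Cd22 shares 9.5% of its exon bases with an opposite-strand gene that is not among the counted genes. Pax5 shares 7.18% with 5730488B01Rik and 1.41% with Gm12462, both on the opposite strand and both counted. Whether reads were counted by strand, and how reads in shared bases were treated, is not given in the sources used here.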

How the data were processed

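RNA was taken from homogenized mouse aorta with a spin-column kit and made into libraries with a SMARTER mRNA-seq kit, per the labels' protocols. Per the submitters' processing notes, the tools were STAR, featureCounts, FastQC, cutadapt and DESeq2, with no roles given, and the build was mm10. Versions, annotation release and strand setting were not stated there. The deposited table holds whole-number counts per gene for 24 libraries, and the authors' deposited comparison tables add log2 fold changes, linear fold changes and p-values from their own DESeq2 fits.

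The 9 genes were found by symbol; the members and the companion gene lists were chosen with earlier results of these data known. From the deposited counts, genes were kept with filterByExpr (minimum count 10, minimum total 15), scaled by TMM and tested with edgeR 4.0.16 (R 4.3.3) by the quasi-likelihood F test, with Benjamini-Hochberg adjustment over all genes and a threshold of 0.05. Each time was fitted on its own 8 libraries; the average and the interaction used all 24, and 4 over 2 months the 16 libraries of those times. Intervals are 95%. Likeness is Pearson r of time-centred log2 CPM (prior count 3). Alternatives were DESeq2 1.42.0, limma 3.58.1 voom with quality weights, DESeq2 size factors, other filters, chromosome M set aside, a replicate block, 1 fit over all libraries and leaving out each library. The edgeR step was tested on simulated data. Exon lengths and overlaps come from GENCODE M21; promoters from RefSeq. From each companion list up to 4 genes called in a comparison are named, by smallest p, or up to 2 with the smallest p where none was called; like genes are the 5 with the highest r at a mean CPM of at least 1, passing over predicted genes and immunoglobulin segments; 1 of them is not reported here. Depth was 19.2e6 to 58.7e6 counts, which limits the precision of low genes such as Cr2. No deposited count column was left unmapped, and no pair of libraries agreed within sampling noise.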

Additional observations from a re-analysis of the deposited data

Results flagged for a closer look

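In 14 of the 54 combinations of a gene and a group of 4, the highest library stood apart from the other 3 by more of the group's range than Dixon's critical value allows. The rule was applied to CPM, not to log2 CPM. Chance gives about 1 in 20 groups, or 2.7, only where values are normally distributed, which was not checked, so the 2 counts cannot be compared strictly. The 14 are also not separate events, since the genes vary together and 4 libraries account for them. Sham aortas at 2 months, replicate 2, stood apart in 7 genes, with 48.2 CPM of Cd79a, 35.3 of Cd79b, 22.0 of Ms4a1, 23.8 of Pax5, 15.3 of Cr2, 21.04 of Cd22 and 12.1 of Mzb1. The next sham aorta had 4.44 CPM of Cd79a and 1.27 CPM of Cr2. In the same library Irf4 and Jchain did not stand apart.

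Ang II aortas at 6 months, replicate 4, stood apart in 4 genes, with 27.1 CPM of Cd79a, 21.2 of Cd79b, 22.0 of Cd22 and 9.63 of Mzb1. Sham aortas at 6 months, replicate 2, had 49.0 CPM of Pax5 and 39.2 CPM of Cr2. Sham aortas at 4 months, replicate 1, had 152 CPM of Jchain, against 44.0 CPM in the next sham aorta.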

How the results depend on the processing

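None of the 9 genes other than Irf4 and Jchain at 2 months was called under any alternative in any comparison. At 2 months the main test called 297 genes, DESeq2 727, limma voom 629 and a log2 fold change of at least 1 as well 192, with Irf4 among them in 9 of 17 alternatives. At 4 months the main test called 114 genes, DESeq2 993 and limma voom 602. It called 214 with chromosome M set aside, 68 with a minimum mean count of 5, 40 with no filter, 16 with the fold limit and 11 with all 24 libraries in 1 fit. At 6 months 0 became 63 under DESeq2. For the average the count of 1 became 62 under DESeq2, 30 under limma voom, 157 on 2 and 4 months only and 0 under the fold limit. For the interaction 103 became 543 under DESeq2 and 787 under limma voom. For the effect at 4 minus 2 months 0 became 179 under DESeq2, 467 under limma voom and 1 each under DESeq2 size factors, the mean count minimum and chromosome M set aside. For sham aortas at 4 over 2 months 346 became 977 under DESeq2, 1266 under limma voom and 168 under the fold limit. For Ang II aortas at 4 over 2 months 1 became 175 under DESeq2, 326 under limma voom, 3 each under DESeq2 size factors and chromosome M set aside, and 0 each under no filter and the fold limit. The cause of these shifts was not tested.

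Limma voom turned 6 genes below 0 at 4 months, on the log2 scale Cd79a to -0.30, Cd79b to -0.23, Ms4a1 to -0.26, Pax5 to -0.42, Cd22 to -0.022 and Jchain to -0.14, and Jchain at 6 months to 0.36. It turned Ms4a1 to -0.041 and Mzb1 to -0.037 in Ang II aortas at 4 over 2 months. With a replicate block Jchain at 6 months was at 0.19 and Irf4 at 2 months kept its call (log2 2.13, adjusted p = 0.0494), while the 6 B cell genes at 2 months were at 1.66 to 2.29 (adjusted p 0.0759 to 0.213). The block called 0 genes at 4 months, 0 for the average and 1 for the interaction. Libraries of the same number did not deviate together at each time (r between -0.294 and 0.509), so the number is taken as a name only. For 4 over 2 months within a treatment no paired analysis was possible because the block was the number within a time.

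Leaving out 1 library at a time, the genes called ranged from 78 (without sham replicate 1) to 255 at 2 months, and the 9 genes called from 0 to 1. They ranged from 0 to 674 at 4 months, 0 to 0 at 6 months, 1 to 7 for the average and 34 to 308 for the interaction. They ranged from 0 to 128 for 4 minus 2 months, 0 to 934 for sham aortas at 4 over 2 months and 0 to 10 for Ang II aortas. At 4 months the log2 fold change ranged from -0.32 to 0.88 for Cd79a, -0.25 to 0.95 for Cd79b, -0.35 to 1.23 for Ms4a1, -0.48 to 0.86 for Pax5, -0.10 to 1.30 for Cd22, -0.17 to 0.98 for Jchain and -0.17 to 0.96 for Mzb1, each lowest without Ang II replicate 3. At 6 months it ranged from -0.22 to 0.63 for Jchain and -1.01 to 0.29 for Mzb1, highest without sham replicate 2. For the average Pax5 ranged from -0.061 to 0.61. For 4 minus 2 months Cr2 ranged from -3.17 to 0.35 and Cd22 from -2.92 to 0.29. For Ang II aortas at 4 over 2 months the ranges were -0.33 to 1.20 for Cd79a, -0.28 to 1.30 for Cd79b, -0.71 to 1.33 for Ms4a1, -0.68 to 1.27 for Pax5, -0.48 to 1.37 for Cr2, -0.63 to 1.501 for Cd22, -0.38 to 0.22 for Jchain and -0.59 to 0.80 for Mzb1.

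The lowest depth behind a value of the 9 genes was 8 counts, of Cr2.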
